A study of Homo sapiens with 12 samples.

Results

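FLVCR1 and 8 other genes of haem handling, FLVCR2, ALAS1, UROD, CPOX, PPOX, FECH, HMOX1 and HMOX2, were followed in cells with mutant or wild-type U1 small nuclear RNA. The 9 genes were taken by symbol from a count table of 57820 genes, and all 9 were found. Of 170723 splice junctions in the deposited junction table, 100 were matched to these genes. They lay in 8 of the genes, and none was matched to FLVCR2. The set was chosen by gene symbol around FLVCR1, which was selected on the shift of one of its junctions in mutant cells of these same lines. Its values in mutant and wild-type cells are therefore a description with no test, while the other 8 genes were tested.

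The RNA came from 3 human cell lines, JVM3, HG3 and MEC1, whose label is chronic lymphocytic leukaemia, a tumour of mature B lymphocytes. JVM3, HG3 and MEC1 with the U1 g.3A>C mutation were set against the same 3 lines with wild-type U1. Each of the 6 groups had 2 technical replicates, 12 libraries in all. The comparison addresses the effect of the U1 mutation on splicing and on RNA levels. The sources used here do not say how the mutant U1 was brought into the cells, or whether a line is 1 clone.

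Haem is made in a chain of enzymes that starts and ends in the mitochondrion. ALAS1 catalyses the first and rate-limiting step outside red cells. UROD, CPOX and PPOX act late in the chain, and FECH inserts iron to finish haem. HMOX1, induced by haem and by oxidative stress, and HMOX2, which is made constitutively, open the haem ring and release iron, biliverdin and carbon monoxide. FLVCR1 is a membrane transporter first described as a haem exporter and later as a choline and ethanolamine transporter, and FLVCR2 is its close relative. U1 pairs with the 5' splice site at the start of an intron, and its base 3 faces the sixth base of the intron.

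Libraries held 29880079 to 39716818 counts in genes, and junction columns 15537369 to 17917160 reads. The junction table has 1 pooled column per line and U1 status, so junction values have no replicate within a line. The 7 B cell markers summed to 2974 to 5233 CPM (counts scaled to the library's total over genes) in the mutant groups and 2941 to 4854 CPM in the wild-type groups. The 12 erythroid markers summed to 1.02 to 2.44 CPM in the mutant groups and 0.517 to 2.33 CPM in the wild-type groups, with ALAS2 and HBA1 at 0 in every group. T cell markers summed to at most 0.895 CPM and monocyte markers to at most 1.96 CPM in any group. In bulk RNA, fewer cells that express a gene and less of its RNA per cell cannot be told apart.

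FLVCR1 (ENSG00000162769.8) was selected on the shift of one of its junctions. That it had the largest junction change of the 8 genes with matched junctions is therefore no finding. It lies on the plus strand of chromosome 1, and all positions below are hg19. In its usual form exon 2 (chr1:213037067-213037211) is joined to exon 3, which begins at 213046020. Between them the junction reads placed 2 further exons, one of 127 bases (chr1:213037735-213037861) and one of 115 bases (chr1:213043396-213043510). The 127-base exon and the start of the 115-base exon are in GENCODE release 29. The splice donor that ends the 115-base exon is not in that release, where the exon is part of a transcript with no coding sequence and stops 2 bases short of the donor.

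The exon sequences are shown because the 115-base exon carried the shift, and the capitals mark the first in-frame stop codon after exon 2. They are the 127 and 113 bases held in the GENCODE transcript sequence.
127-base exon: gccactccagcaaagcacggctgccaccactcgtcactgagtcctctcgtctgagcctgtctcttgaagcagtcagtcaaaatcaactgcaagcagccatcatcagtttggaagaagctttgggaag
115-base exon: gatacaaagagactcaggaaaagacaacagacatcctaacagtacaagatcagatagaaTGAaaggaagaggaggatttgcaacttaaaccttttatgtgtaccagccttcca
Exon 2 leaves 1 base of an unfinished codon. When exon 2 is joined straight to the 115-base exon, the reading frame meets TGA at bases 60 to 62. When the 127-base exon comes between them, that exon is open in the frame used, and the first stop begins at base 86 of the 115-base exon.

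The 115-base exon supplied most of the reads joined to FLVCR1 exon 3 in mutant cells and a minority in wild-type cells. In JVM3 it supplied 73 of 110 reads (66.4%, 95% Wilson interval 57.1 to 74.5) in mutant cells, against 32 of 172 (18.6%, 13.5 to 25.1) in wild-type cells. In HG3 it supplied 155 of 187 reads (82.9%, 76.8 to 87.6) in mutant cells, against 42 of 303 (13.9%, 10.4 to 18.2) in wild-type cells. In MEC1 it supplied 101 of 111 reads (91.0%, 84.2 to 95) in mutant cells, against 35 of 119 (29.4%, 22.0 to 38.1) in wild-type cells. The 2 statuses did not overlap: the lowest mutant share, in JVM3, lay above the highest wild-type share, in MEC1. The mean share was 80.1% ± 12.5 in mutant and 20.6% ± 7.9 in wild-type cells (SD, n = 3 lines), a difference of 59.5 points ± 10.8. The exon was thus already used in wild-type cells of every line. These intervals cover counting error only.

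The competing junctions into exon 3 had smaller shares in mutant cells of each line. The exon 2 to exon 3 junction took 12.5% ± 7.6 of the exon 3 reads in mutant cells and 58.9% ± 11.1 in wild-type cells (SD, n = 3 lines), a difference of -46.4 points. The junction from the 127-base exon to exon 3 took 6.7% ± 5.0 in mutant and 16.7% ± 3.2 in wild-type cells (SD, n = 3 lines), a difference of -10.0 points. In MEC1 these 2 junctions were down to 7 and 2 reads of 111 in mutant cells, against 57 and 20 of 119 in wild-type cells. A junction from exon 1 straight to exon 3, outside the annotation, had 1, 1 and 1 reads in mutant JVM3, HG3 and MEC1, against 5, 8 and 7 in the wild-type lines. A second donor, 16 bases further on, ended the exon in only 5 reads over all 6 columns.

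**Figure D1:**
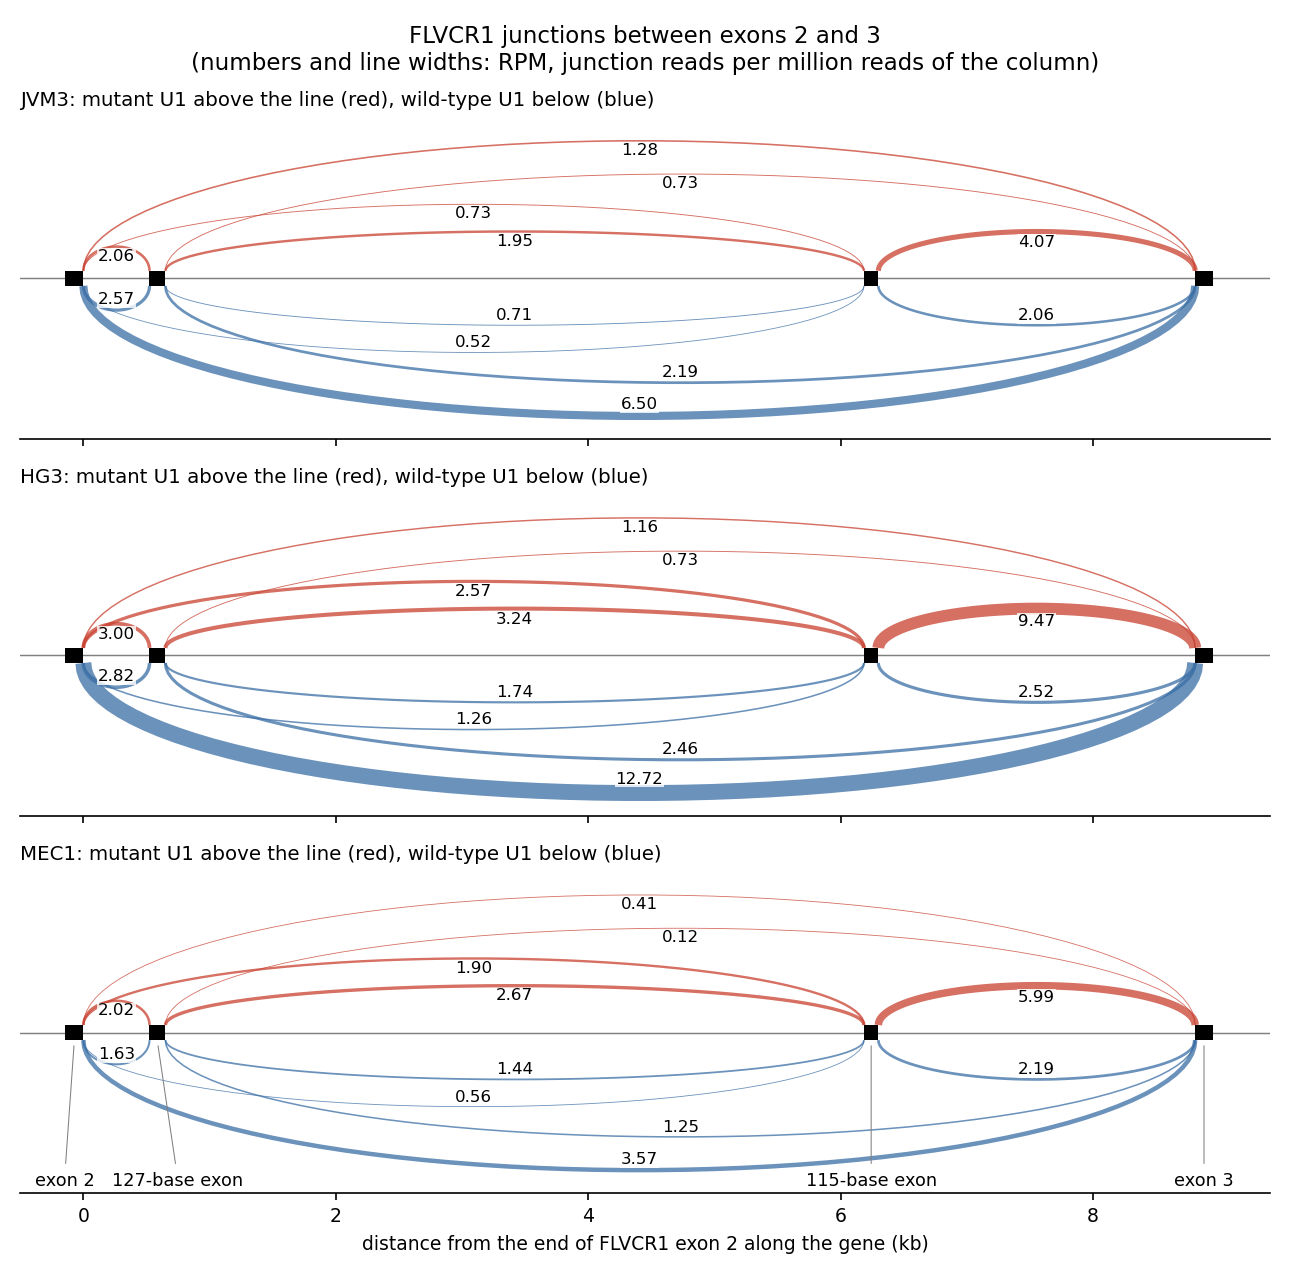
Junction arcs between FLVCR1 exons 2 and 3, drawn to scale along the gene in kb from the end of exon 2, with mutant cells above and wild-type cells below the line for each cell line. Numbers and line widths give RPM, junction reads scaled to the column's total. The arc from the 115-base exon to exon 3 is the widest in all 3 mutant columns (4.07, 9.47 and 5.99 RPM in JVM3, HG3 and MEC1), and the arc from exon 2 to exon 3 is the widest in all 3 wild-type columns (6.50, 12.72 and 3.57 RPM).

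Seen from the donor side, both ways into the 115-base exon had larger shares in mutant cells of each line. Of the reads leaving the 127-base exon, 72.9%, 81.5% and 95.7% went to the 115-base exon in mutant JVM3, HG3 and MEC1, against 24.4%, 41.4% and 53.5% in the wild-type lines. Of the reads leaving exon 2, 17.8%, 38.2% and 43.8% went straight to it in the mutant lines, against 5.4%, 7.5% and 9.8% in the wild-type lines. The share of exon 2 reads that went to the 127-base exon was 47.3% ± 3.2 in mutant and 24.0% ± 6.3 in wild-type cells (SD, n = 3 lines). Its RPM (junction reads scaled to the column's total) did not follow 1 direction. Reads from exon 2 to it stood at 0.802 times the wild-type value in mutant JVM3 (95% interval 0.499 to 1.29), 1.06 times in HG3 (0.697 to 1.62) and 1.24 times in MEC1 (0.722 to 2.15), each as a ratio of RPM.

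**Figure D2:**
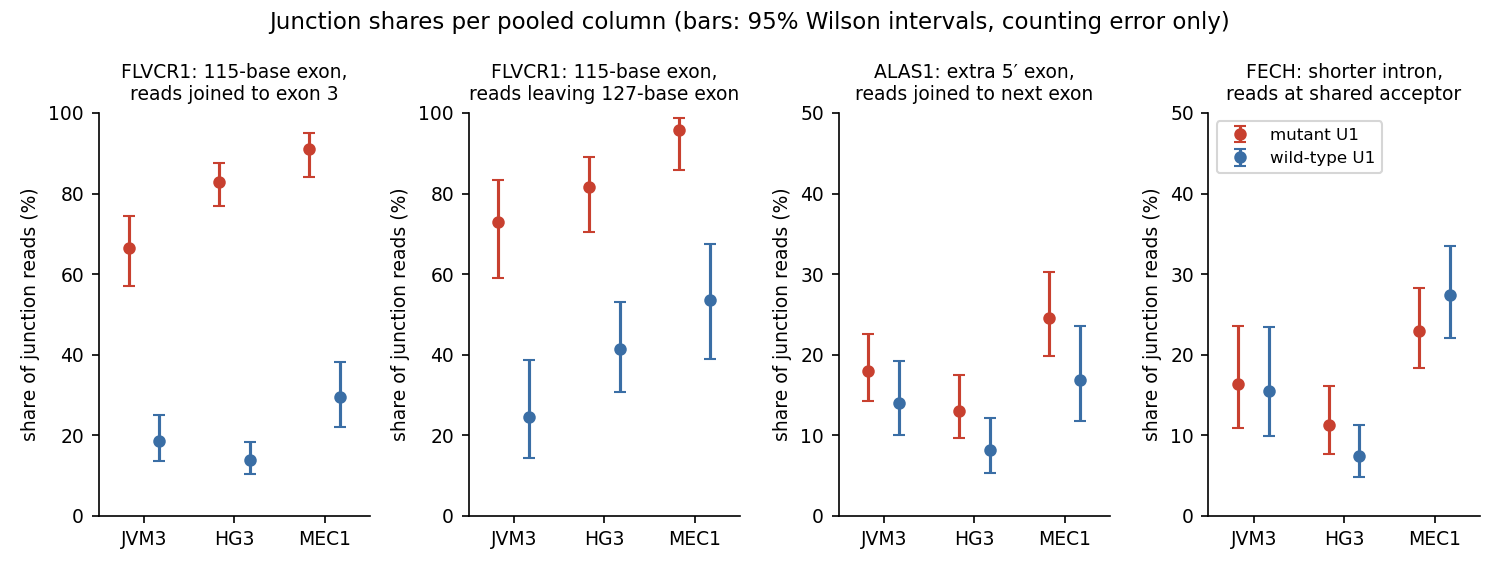
Shares of junction reads (%) in each pooled column with 95% Wilson intervals, mutant U1 left of wild-type U1 for each line. In both FLVCR1 panels, drawn as a description of the shift the gene was selected on, the mutant point lies above the wild-type point in every line. In the ALAS1 and FECH panels the intervals of mutant and wild-type cells overlap in every line.

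On the RPM scale, the reads entering the 115-base exon were 2.19 times as many in mutant as in wild-type JVM3 (95% interval 1.26 to 3.95), 1.93 times in HG3 (1.36 to 2.78) and 2.24 times in MEC1 (1.47 to 3.48). The reads leaving it, at either donor, were 1.98 times as many in mutant as in wild-type JVM3 (1.29 to 3.1), 3.72 times in HG3 (2.64 to 5.34) and 2.69 times in MEC1 (1.82 to 4.04). By ratio, reads leaving the exon put HG3 highest, where reads entering it put HG3 lowest. As the intervals of the 3 lines overlapped in both, this does not order the lines for use of the exon. The reads that reached exon 3 without it were 0.229 times as many in mutant as in wild-type JVM3 (0.155 to 0.331), 0.125 times in HG3 (0.084 to 0.181) and 0.113 times in MEC1 (0.052 to 0.218). Those reads stood at 2.06, 1.96 and 0.593 RPM in mutant JVM3, HG3 and MEC1, against 9.01, 15.7 and 5.26 RPM in the wild-type lines. In RPM, the path without the exon was lower by more than the path through it was higher, in each line. Matched junctions on either side of this region were lower too, though none past exon 7 was matched. Exon 1 to exon 2 reads stood at 0.306, 0.276 and 0.424 times the wild-type value in mutant JVM3, HG3 and MEC1, and the matched junctions downstream, between exons 5 and 7, at 0.367, 0.331 and 0.592 times.

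The whole-gene count of FLVCR1 was lower in every mutant library than in both wild-type libraries of the same line. It stood at 26.5 and 28.8 CPM in mutant JVM3 and at 51.3 and 51.6 CPM in wild-type JVM3. In HG3 the mutant libraries had 51.05 and 53.7 CPM and the wild-type libraries 106.8 and 112.2 CPM. In MEC1 the mutant libraries had 28.0 and 30.3 CPM and the wild-type libraries 41.5 and 44.5 CPM. The lines differed enough that mutant HG3 lay above wild-type MEC1. The mean was 36.4 ± 13.9 CPM in mutant and 67.9 ± 36.1 CPM in wild-type cells (SD, n = 3 lines), or -0.85 as a log2 fold change (SE 0.15 over the 3 lines). By line, JVM3 had a log2 fold change of -0.87, HG3 -1.06 and MEC1 -0.62. The gene count includes every exonic read of the gene, and its ratios (JVM3 0.538, HG3 0.479, MEC1 0.677) were less extreme than that of the exon 1 to exon 2 junction. Which form the remaining reads came from was not tested.

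**Figure D3:**
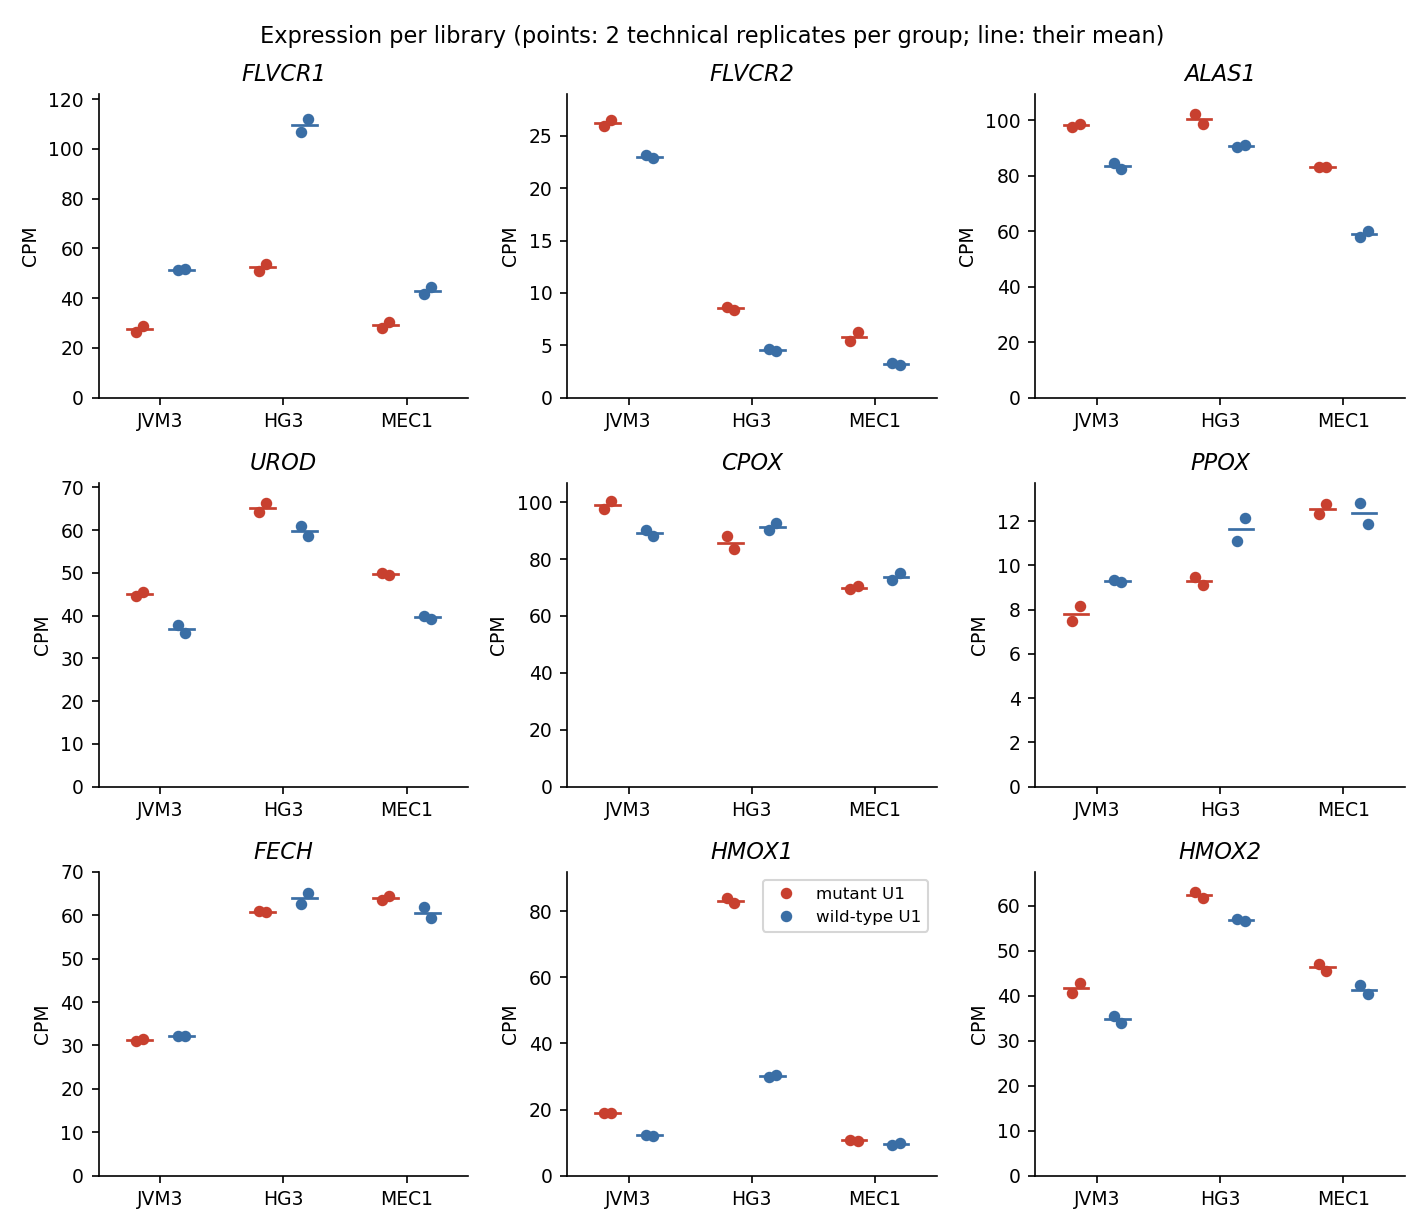
CPM of the 9 genes in each library, mutant U1 left of wild-type U1 for each line; points are the 2 technical replicates and short lines their means. FLVCR1 is lower in all mutant libraries than in wild-type libraries of the same line, and HMOX1 in mutant HG3 (83.9 and 82.5 CPM) stands far above every other group.

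Across the 3 lines, none of the other 8 genes passed edgeR's quasi-likelihood test at an adjusted p under 0.05, where 3.69% of all 21270 genes tested did (784 genes). At an unadjusted p under 0.05 there were 4, FLVCR2, ALAS1, UROD and HMOX1, but the share of all genes under it was not counted. DESeq2 called 2, FLVCR2 and HMOX1, where it called 1315 of 41805 genes. Those 41805 are all genes with a p-value, low counts included, so the share is not comparable with that of edgeR. With the 12 libraries left unsummed and the line and replicate number as blocks, 5 passed, as did 5084 of all 21270 genes. That fit treats technical replicates as independent samples. The median log2 fold change of the 8 genes was 0.205, against -0.01 over all genes tested. Of the 8, 5 were higher in mutant cells of all 3 lines, but how many of all genes were was not counted. Within lines more passed, in tests that measure the spread between technical replicates only.

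FLVCR2 (ENSG00000119686.5) was higher in mutant cells of each line, the opposite side from FLVCR1. Mutant JVM3 had 25.9 and 26.5 CPM, against 23.2 and 22.8 CPM in wild-type JVM3. Mutant HG3 had 8.69 and 8.40 CPM, against 4.61 and 4.42 CPM in wild-type HG3. Mutant MEC1 had 5.42 and 6.23 CPM, against 3.31 and 3.15 CPM in wild-type MEC1. No mutant library overlapped the wild-type libraries of its line, a separation not counted over all genes. The log2 fold change across lines was 0.61 (SE 0.23, n = 3 lines), with an adjusted p of 0.0618 by edgeR, which missed the threshold. It passed DESeq2 (adjusted p = 0.0215). In edgeR it passed when any 1 of 4 libraries was left out (adjusted p = 0.043 to 0.0498). These were JVM3 mutant replicate 1, both JVM3 wild-type replicates and HG3 mutant replicate 1. Those 4 fits also called more genes in all, 945 to 1051 of 22197 to 22461, against 784 of 21270 in the main fit. Other genes overlap FLVCR2 in GENCODE release 29 on both strands, among them TTLL5 on its own strand, and it is not stated whether counting used the strand, so its count is uncertain.

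ALAS1 and UROD, at the start and in the later part of haem synthesis, were slightly higher in mutant cells of each line. ALAS1 (ENSG00000023330.10) had 97.7 and 98.7 CPM in mutant JVM3, 102.2 and 98.5 CPM in mutant HG3 and 83.2 and 83.2 CPM in mutant MEC1. The wild-type libraries had 84.4 and 82.5 CPM in JVM3, 90.4 and 91.1 CPM in HG3 and 58.0 and 60.1 CPM in MEC1. Mutant and wild-type libraries did not overlap within any line, a separation with no count over all genes beside it, and the gap was widest in MEC1. The log2 fold change across lines was 0.28 (SE 0.105, n = 3 lines, adjusted p = 0.103 by edgeR). UROD (ENSG00000126088.8), which decarboxylates uroporphyrinogen, averaged 53.3 ± 10.6 CPM in mutant and 45.4 ± 12.6 CPM in wild-type cells (SD, n = 3 lines). Its log2 fold change was 0.24 (SE 0.06, n = 3 lines, adjusted p = 0.148 by edgeR). Mutant exceeded wild-type libraries in all 3 lines, again with no count over all genes.

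None of the last 3 enzymes was higher in mutant cells of every line. CPOX (ENSG00000080819.2), which makes protoporphyrinogen, averaged 84.9 ± 14.6 CPM in mutant and 84.7 ± 9.6 CPM in wild-type cells (SD, n = 3 lines), or -0.02 as a log2 fold change (SE 0.08; edgeR adjusted p = 0.94). PPOX (ENSG00000143224.13), which oxidises it to protoporphyrin, averaged 9.88 ± 2.40 CPM in mutant and 11.1 ± 1.60 CPM in wild-type cells (SD, n = 3 lines), or -0.19 as a log2 fold change (SE 0.10; edgeR adjusted p = 0.371). FECH (ENSG00000066926.6) averaged 52.0 ± 18.1 CPM in mutant and 52.2 ± 17.4 CPM in wild-type cells (SD, n = 3 lines), or -0.03 as a log2 fold change (SE 0.04; edgeR adjusted p = 0.896). For FECH the difference between mutant and wild-type cells was far smaller than the spread between lines. PPOX overlaps B4GALT3 on the other strand, so without a stated strand setting its count is uncertain, and CPOX overlaps AC021660.3 on the same strand.

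HMOX1 (ENSG00000100292.12), the inducible haem oxygenase, was higher in mutant cells by very different amounts. Mutant HG3 had 83.9 and 82.5 CPM, against 29.9 and 30.6 CPM in wild-type HG3. Mutant JVM3 had 18.9 and 19.1 CPM, against 12.4 and 12.1 CPM in wild-type JVM3. Mutant MEC1 had 10.8 and 10.6 CPM, against 9.29 and 9.91 CPM in wild-type MEC1. The ratio of mutant to wild-type was 2.75 in HG3, 1.56 in JVM3 and 1.12 in MEC1. Across lines the log2 fold change was 0.76 (SE 0.38, n = 3 lines, adjusted p = 0.153 by edgeR, 0.0406 by DESeq2). Both HMOX1 junctions with at least 20 reads were also higher in mutant cells of each line. The second of them was higher by little in JVM3 and MEC1. In MEC1 the 2 junctions had 38 and 93 reads in mutant cells, against 29 and 80 in wild-type cells. In JVM3 the reads were 56 and 143, against 34 and 114. No intervals were taken for these junctions. They stood at 2.64 and 2.62 times the wild-type RPM in mutant HG3, 1.43 and 1.09 times in mutant JVM3 and 1.24 and 1.10 times in mutant MEC1.

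HMOX2 (ENSG00000103415.7), the constitutive haem oxygenase, differed little. It averaged 50.2 ± 10.8 CPM in mutant and 44.4 ± 11.4 CPM in wild-type cells (SD, n = 3 lines), or 0.17 as a log2 fold change (SE 0.04; edgeR adjusted p = 0.267). The mutant libraries were above the wild-type libraries in every line, by 1.20 times in JVM3, 1.09 times in HG3 and 1.12 times in MEC1. Such separation was not counted over all genes. HMOX2 overlaps NMRAL1 on the other strand, so its count is uncertain in the same way.

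**Figure D4:**
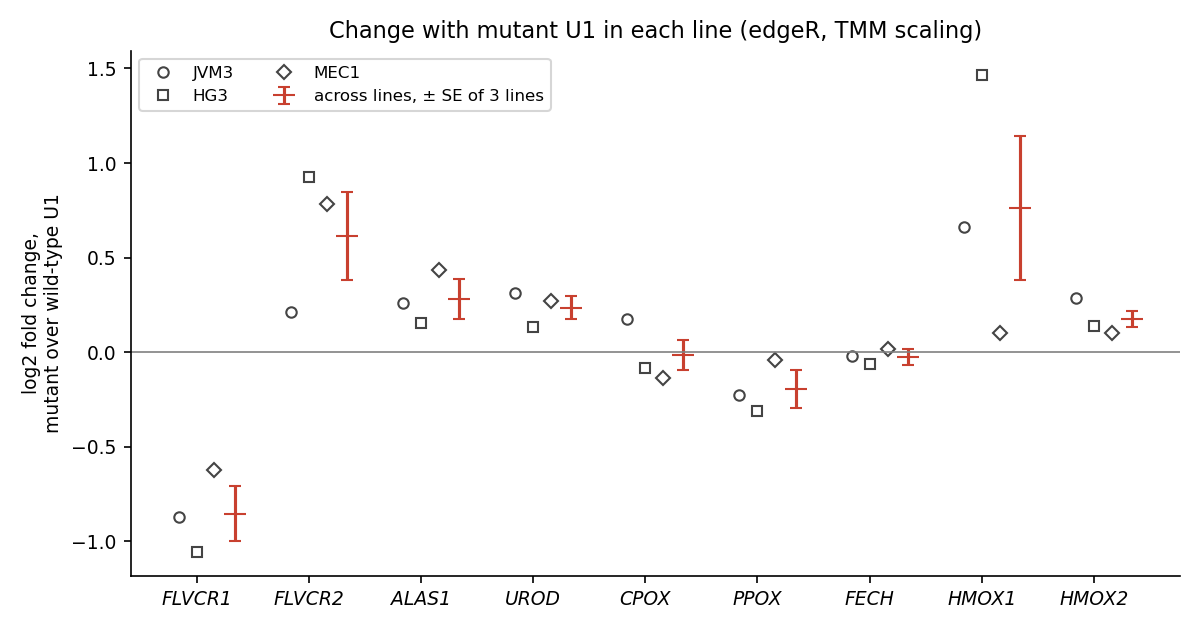
Log2 fold change of mutant over wild-type U1 for the 9 genes, with open symbols for each line and a red bar for the fit across lines with the SE of the 3 lines' values. FLVCR1 lies below 0 in every line, FLVCR2, ALAS1, UROD, HMOX1 and HMOX2 lie above 0 in every line, PPOX lies below 0 in every line but close to it in MEC1 (-0.04), and CPOX and FECH lie on both sides of 0.

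Within JVM3, 6 of the 8 genes rose with mutant U1 and none fell, against 22.4% of all genes called and 10.4% called higher. They were HMOX1 (log2 fold change 0.66), UROD (0.31), HMOX2 (0.29), ALAS1 (0.26), FLVCR2 (0.21) and CPOX (0.17), with adjusted p of 4.97e-10 to 0.0304 by edgeR. Within HG3, 5 rose and 1 fell, against 38.3% called, 18.7% higher and 19.6% lower. HMOX1 (1.47), FLVCR2 (0.93), ALAS1 (0.15), HMOX2 (0.14) and UROD (0.13) rose and PPOX fell by 0.31, with adjusted p of 1.25e-25 to 0.0259 by edgeR. DESeq2 called 3 of these, FLVCR2, ALAS1 and HMOX1, and 3 also passed in edgeR when HG3 mutant replicate 1, HG3 mutant replicate 2 or HG3 wild-type replicate 2 was left out. Within MEC1, 3 rose and 1 fell, against 36.6% called, 18% higher and 18.6% lower. FLVCR2 (0.78), ALAS1 (0.44) and UROD (0.27) rose and CPOX fell by 0.14, with adjusted p of 3.01e-11 to 0.012 by edgeR. FLVCR2, ALAS1 and UROD thus rose in each line by this test, and FECH passed in none, but some of these calls rest on single libraries or on the setting. UROD in HG3 was lost under DESeq2 and in edgeR with no filter on low counts (adjusted p = 0.14 in both), and without either HG3 mutant replicate or HG3 wild-type replicate 2 (adjusted p = 0.0698 to 0.252). ALAS1 in HG3 was lost in edgeR without HG3 mutant replicate 1 (adjusted p = 0.105). HMOX2 in HG3 was lost under DESeq2 (adjusted p = 0.138), in edgeR with no filter (0.122) and without any 1 of the 4 HG3 libraries (0.0886 to 0.192). PPOX in HG3 was lost under DESeq2 (adjusted p = 0.0594) and in edgeR without HG3 mutant replicate 2 (0.0539) or HG3 wild-type replicate 2 (0.0863). The call for FLVCR2 in JVM3 was lost under DESeq2 (adjusted p = 0.184) and in edgeR without any 1 of the 4 JVM3 libraries (adjusted p = 0.0935 to 0.199). That for CPOX in MEC1 was lost in edgeR without either MEC1 mutant replicate or MEC1 wild-type replicate 2 (adjusted p = 0.0512 to 0.119).

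The response differed between lines for 4 of the 8 genes by edgeR's test of that difference, where 32% of all genes did. HMOX1 differed most clearly (adjusted p = 2.82e-15), with log2 fold changes of 1.47 in HG3, 0.66 in JVM3 and 0.10 in MEC1. FLVCR2 differed (adjusted p = 1.86e-05), with its smallest change in JVM3, the line where its level was highest. CPOX differed (adjusted p = 7.97e-05), with 0.17 in JVM3, -0.09 in HG3 and -0.14 in MEC1. ALAS1 differed (adjusted p = 0.000774), with its largest change in MEC1, the line where its level was lowest. UROD did not pass (adjusted p = 0.092), but did with the replicate number as a block (adjusted p = 0.042). These tests too rest on technical replicates.

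No junction of the other genes met the call for a change in use. Of the 100 matched junctions 63 had at least 20 reads over all columns, and 25 of those shared an acceptor with another, 8 in FLVCR1 and 17 in ALAS1, UROD, CPOX, PPOX, FECH and HMOX2. None of the 17 met the call rule (edgeR diffSpliceDGE adjusted p under 0.05 with 5 points or more, all lines moving one way), against 2.78% of 35857 junctions tested. An unadjusted p under 0.05 was found for 2 of the 17, and the share of all junctions under it was not counted. Limma on log ratios also called none of them. The largest change of the 17, in ALAS1, was 5.58 points. An extra exon at the 5' end of ALAS1, joined by chr3:52232864-52233226 on the plus strand, took 18.0%, 13.0% and 24.6% of the reads at its acceptor in mutant JVM3, HG3 and MEC1. It took 14.0%, 8.1% and 16.9% in wild-type JVM3, HG3 and MEC1. The mean difference was 5.6 points ± 1.9 (SD, n = 3 lines; adjusted p = 0.414 by diffSpliceDGE), with the opposite change at the competing junction chr3:52232271-52233226 (adjusted p = 1). It was higher in mutant cells of all 3 lines, but the Wilson intervals overlapped in each.

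Among the smaller events, a CPOX junction with an acceptor outside the annotation (chr3:98305062-98307557, minus strand) was seen mainly in mutant cells. It took 8 of 429 donor reads in mutant JVM3, 11 of 316 in mutant HG3 and 16 of 281 in mutant MEC1, or 1.9%, 3.5% and 5.7%. In wild-type cells it took 0 of 320 reads in JVM3, which allows a share of up to 0.938%, 1 of 351 in HG3 and 3 of 296 in MEC1. The difference was 3.2 points ± 1.4 (SD, n = 3 lines), under the 5 points a call needed, with an adjusted p of 0.0316 by diffSpliceDGE on shares of donor reads. This event was named after its values were seen. The shorter of the alternative FECH introns took 16.8% ± 5.9 of acceptor reads in mutant and 16.8% ± 10.1 in wild-type cells (SD, n = 3 lines), and differed more between lines than with U1 status. In MEC1 it took 22.9% in mutant and 27.4% in wild-type cells, and in HG3 11.2% in mutant and 7.4% in wild-type cells.

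The wider haem and iron genes, in 7 lists of 3 to 12 tested genes each, held 1 gene that passed across lines, where 3.69% of all genes did. EIF2AK1, the haem-regulated kinase of the translation factor eIF2 alpha, fell to 55.0 ± 22.4 CPM in mutant cells, against 134.3 ± 60.9 CPM in wild-type cells (SD, n = 3 lines). Its log2 fold change was -1.28 (SE 0.175, adjusted p = 0.00442 by edgeR). It was lower in all 6 mutant libraries than in the wild-type libraries of the same line, a separation not counted over all genes. Its fall was known when the list was drawn up, so it does not bear independently on the pathway. The list of haem breakdown, binding and sensing had 11 genes, of which 1 fell and 10 did not pass, with a median log2 fold change of 0.12. HEBP1, a haem-binding protein gene that averaged 0.429 CPM in mutant and 0.289 CPM in wild-type cells, had the highest value there (0.55, adjusted p = 0.552 by edgeR). That value rests on MEC1, as HEBP1 was at 0 counts in every JVM3 library and had 1 count in 1 HG3 library only.

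In the other 6 lists none passed by edgeR, where 3.69% of all genes did. The medians of these lists lay between -0.10 and 0.08, against -0.01 over all genes. There were 5 genes at an unadjusted p under 0.05, again with no share of all genes counted. DESeq2 called 2, TFRC and CHKA, where it called 1315 of 41805 genes, low counts included. Of the other haem synthesis enzymes ALAS2, the erythroid form of the first enzyme, was at 0 counts in every library. Of the 3 tested, ALAD, which joins the products of the first step in pairs, had the highest log2 fold change (0.09). Of 12 transport genes, SLC25A38, a mitochondrial glycine carrier needed for haem synthesis, had the highest log2 fold change (0.20, adjusted p = 0.185 by edgeR). ABCG2, an efflux pump that can carry porphyrins, had the lowest (-0.79, adjusted p = 0.411 by edgeR) at 0.220 CPM in mutant and 0.448 CPM in wild-type cells. It was at 0 counts in every HG3 library, with log2 fold changes of 0.55 in JVM3 and -1.30 in MEC1. The 3 genes that modify or attach haem ran from COX15 (-0.22) to HCCS (0.13).

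Of 12 iron genes tested, the transferrin receptor gene TFRC had the highest log2 fold change (0.36, SE 0.14, adjusted p = 0.083 by edgeR). It averaged 961 ± 291 CPM in mutant and 775 ± 375 CPM in wild-type cells (SD, n = 3 lines). HFE, whose product binds that receptor, had the lowest (-0.35). The 10 antioxidant genes that share NRF2 and BACH1 control with HMOX1 had a median of -0.10. None had a TMM-scaled value above 0 in all 3 lines, but how many of all genes did was not counted. In plain CPM TXNRD1, named after its values were seen, stood at 1.01 to 1.02 times wild-type in each. OSGIN1 averaged 0.361 CPM in mutant and 0.423 CPM in wild-type cells, and ME1 had 0 or 1 counts in each MEC1 library. The log2 fold changes of the 10 ran from OSGIN1 (-0.29) to ME1 (0.11). HMOX1 itself had 0.76. Of the 10 choline and phosphatidylcholine genes tested, CHKA, a choline kinase gene, had the highest (0.37, SE 0.13, adjusted p = 0.0679 by edgeR) and PEMT, a phosphatidylethanolamine methyltransferase gene, the lowest (-0.30, adjusted p = 0.276 by edgeR).

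In wild-type cells the 9 genes spanned more than an order of magnitude per length. The mean over the 3 wild-type lines was 30.6 CPM per kb of exon for ALAS1, 26.2 for CPOX, 15.6 for UROD, 11.7 for HMOX2, 11.7 for FECH, 10.5 for FLVCR1, 7.21 for HMOX1, 2.41 for PPOX and 2.08 for FLVCR2. Neighbours from UROD to HMOX1 in that order overlapped over the 3 lines, as did ALAS1 and CPOX, and PPOX and FLVCR2. Lengths are those of all annotated exons together, so a gene with long, rarely used exons is placed too low.

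**Figure D5:**
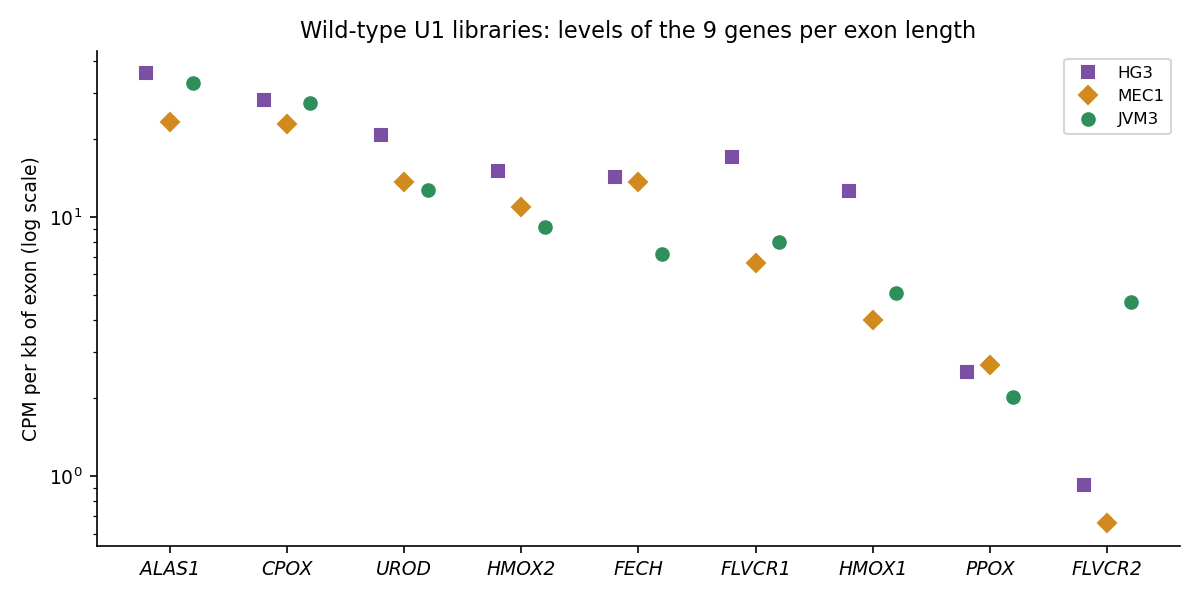
Levels of the 9 genes in wild-type U1 libraries, in CPM per kb of exon on a log scale, with 1 point per line (replicates summed). ALAS1 and CPOX are the 2 highest genes in each line, and FLVCR2 is the gene with the widest spread, 0.920 in HG3 and 0.658 in MEC1 against 4.68 in JVM3.

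The lines themselves differed strongly in these genes. FLVCR1 in wild-type HG3 was above wild-type JVM3 by 1.00 and above wild-type MEC1 by 1.43 on the log2 scale, and wild-type MEC1 was below JVM3 (-0.44), with adjusted p of 3.97e-22, 8.42e-28 and 1.14e-09 by edgeR. The largest line difference was that of FLVCR2, lower than in wild-type JVM3 by 2.44 in HG3 (log2 fold change -2.44, adjusted p = 1.48e-26 by edgeR) and by 3.00 in MEC1 (-3.00, adjusted p = 3.17e-29 by edgeR). HMOX1 was higher in wild-type HG3 than in JVM3 by 1.22 and than in MEC1 by 1.74 (adjusted p = 1.26e-20 and 7.59e-26 by edgeR). HG3 thus had the highest HMOX1 with mutant as well as wild-type U1. FECH was lowest in JVM3, with log2 fold changes of 0.90 for HG3 and 0.74 for MEC1 over JVM3 (adjusted p = 2.38e-20 and 1.82e-17 by edgeR).

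Of the 9 genes, 7 differed between wild-type HG3 and JVM3, 7 between MEC1 and JVM3 and 8 between HG3 and MEC1, where 63.4%, 71.8% and 67.5% of all genes did. PPOX was among them only with weak support: for HG3 over JVM3 its log2 fold change was 0.23 (adjusted p = 0.0314 by edgeR), and with the replicate number as a block its adjusted p was 0.0616. For MEC1 over JVM3 it was 0.24 (adjusted p = 0.0211), and DESeq2 gave 0.156. These tests compare lines on technical replicates and say nothing of other cultures of the same line.

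The genes whose levels were most like FLVCR1 over the 12 libraries, among 14612 genes with a mean of at least 1 CPM, were PLEKHG5 (Pearson r = 0.973), SYK (0.970) and PPCDC (0.970). The libraries share lines and technical replicates, so r is a description of the order HG3 wild-type highest and mutant below wild-type in each line. SYK, a kinase gene of B cell receptor signalling, had 37.4, 48.2 and 38.0 CPM in mutant JVM3, HG3 and MEC1, against 54.2, 99.2 and 53.7 CPM in the wild-type lines. PLEKHG5 was low, at 0.890 to 1.5 CPM in the mutant lines and 1.42 to 3.19 CPM in the wild-type lines. PPCDC, an enzyme gene of coenzyme A synthesis, had 16.2 to 21.0 CPM in the mutant lines and 18.3 to 30.8 CPM in the wild-type lines.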

How the data were processed

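Stranded libraries were made from Trizol total RNA after ribodepletion, per the labels' protocols. The tools were STAR 2.5.4b and HTSeq 0.9.1 and the build hg19, per the submitters' processing notes. The sources used here do not give the annotation, the strand setting or how junctions were extracted. The authors deposited raw counts, per gene for 12 libraries and per junction for 6 pooled columns. Rows that name no gene were left out: reads not uniquely aligned, ambiguous or in no feature took 0.9% to 34.92% of a library each, and the other rows of that kind were at 0.

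The genes and lists were chosen with earlier results of these data known. The text names the 9 genes, list genes that pass across lines, EIF2AK1, the highest and lowest of each list, and the 3 genes most like FLVCR1. Not every gene this rule takes is reported here. CPM are scaled to counts in genes, and RPM to reads of a junction column. Genes were tested in R 4.3.3 by the robust quasi-likelihood F-test of edgeR 4.0.16 after filterByExpr and TMM, at a Benjamini-Hochberg adjusted p under 0.05 over 21270 genes. Across lines, the fit held 1 summed library per line and status and a term for the line. Within lines, between responses and between wild-type lines, it held 6 groups of 2 libraries. The SE is that of the 3 lines' log2 ratios of CPM. As nothing states separate cultures, p-values within a line measure technical spread.

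The deposited junction counts name no genes, and hg19 annotation was not used. Genes were matched to GENCODE release 29 by exact intron lengths and spacing, with at least 2 introns matched and at least 2 times the next best place, and no coordinates were converted. A start is the last base of an exon and an end the first base of the next. For junctions that share an acceptor and have 20 reads or more, use was tested by diffSpliceDGE of edgeR with a term for the line. Shares carry 95% Wilson intervals, ratios of junction reads carry exact binomial intervals, and a count of 0 allows up to 3 counts. Exon sequences were read from GENCODE transcripts. The edgeR fits across lines, within JVM3 and HG3 and between responses were tried on simulated counts first, as was diffSpliceDGE at shared acceptors. The other tests were not.

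The labels give replicate letters, which were read as replicate numbers. Same-numbered mutant and wild-type replicates deviated together (r = 0.144 in JVM3, 0.127 in HG3 and 0.407 in MEC1 over 10608 genes). The main fits did not pair them, and a block for the replicate number was run as an alternative. The mean chi-square per gene between technical replicates was 2.28 to 5.29, above counting noise. The other alternatives were DESeq2 1.42.0, RLE scaling, no filter on low counts, leaving out lines or libraries, unsummed libraries, a minimum of 50 junction reads, donor shares and limma 3.58.1. Figures were drawn with matplotlib 3.10.9.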

Additional observations from a re-analysis of the deposited data

Results flagged for a closer look

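The response to mutant U1 differed between the 3 lines, by edgeR's test of the difference on technical replicates, for 5 genes named here. For HMOX1 the adjusted p was 2.82e-15, with log2 fold changes of 0.66 (JVM3), 1.47 (HG3) and 0.10 (MEC1). For EIF2AK1 it was 2.03e-10, where JVM3 had -0.91, HG3 -1.53 and MEC1 -1.38. For FLVCR2 it was 1.86e-05, where JVM3 had 0.21, HG3 0.93 and MEC1 0.78. For CPOX it was 7.97e-05, where JVM3 had 0.17, HG3 -0.09 and MEC1 -0.14. For ALAS1 it was 0.000774, where JVM3 had 0.26, HG3 0.15 and MEC1 0.44. Groups of 2 technical replicates are too small for a test of single libraries that lie apart.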

How the results depend on the processing

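Across lines, 0 of the 8 genes other than FLVCR1 were called by edgeR, with RLE scaling and without any 1 line too. DESeq2 and edgeR with no filter on low counts called 2 each, FLVCR2 and HMOX1, and leaving out 1 library called 0 to 1, the 1 being FLVCR2. With libraries unsummed 6 were called, and 5 with the replicate block as well, since technical replicates then count as samples. The cause of the other differences was not tested. In HG3 6 were called, 3 by DESeq2 and 3 to 6 without 1 library. The ranges without 1 library were 5 to 6 in JVM3, 3 to 4 in MEC1, 4 to 5 for the difference between lines, and 6 to 7, 6 to 7 and 8 to 8 for wild-type HG3 over JVM3, MEC1 over JVM3 and HG3 over MEC1. A group left with 1 library was assumed to vary like the others. Within lines the replicate block gave 6, 6 and 4 calls in JVM3, HG3 and MEC1, as without it, and apart from UROD (difference between lines) and PPOX (wild-type HG3 over JVM3) it changed no other call of the 6-group fits.

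Values that changed sign were all near 0. CPOX across lines ran from -0.13 (without JVM3) to 0.05 (without MEC1), with 0.02 without HG3. In MEC1, PPOX ran from -0.09 to 0.02 and FECH from -0.01 to 0.05 without 1 library. PPOX in wild-type HG3 over MEC1 was 0.02 with no filter and -0.07 to 0.07 without 1 library. For FLVCR1 the 115-base exon's difference was 59.2 points with at least 50 reads, 59.0 over all junctions and 54.2 to 64.8 without 1 line. Its donor has 1 junction above the minimum, so donor shares were taken for exon 2 to exon 3, at -49.0 points (-42.0 to -53.1 without 1 line at the acceptor). No junction of the other genes was called under any alternative run. Pooled junction columns carry no replicate number, so junctions had no replicate block, and their depth limits FLVCR1 shares to the intervals given. All genes called across lines numbered 784, 1315 by DESeq2, 2540 with no filter, 6641 and 5084 unsummed (without and with the replicate block) and 320 to 380 without 1 line. Without 1 library they numbered 845 to 1051.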
